A study of Homo sapiens with 6 samples.

Results

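The S100 genes examined here encode small calcium-binding proteins, several of which have been linked to tumor cell invasion and metastasis. The group was set by name and holds 10 genes (S100A2, S100A3, S100A4, S100A6, S100A10, S100A11, S100A13, S100A14, S100A16 and S100P) of the 60612 gene identifiers in the data. The expression of a gene was the sum over all of its transcripts, in FPKM (fragments mapped to a transcript, corrected for its length and for the total of the library). The RNA came from MDA-MB-231, an established human TNBC (triple-negative breast cancer) cell line, at day 3. The Sh-NC group stably expressed a control short hairpin RNA and is labelled wild type, and the Sh-YAP1 group stably expressed a short hairpin RNA against YAP1 and is labelled YAP1 knockdown. Each group had 3 libraries, and the labels name a single hairpin group against YAP1. The labels do not say whether the libraries came from separate cultures or whether the lines are clones, so p-values measure the spread between these libraries, which may be technical.

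S100 proteins form dimers that change shape when calcium binds to their EF-hand loops and then dock onto other proteins, such as annexins, myosin and cytoskeletal scaffolds. Some are also released from cells and bind the receptor AGER (RAGE). YAP1 is a coactivator of the Hippo pathway that has no DNA-binding domain of its own and acts on genes through TEAD factors, often together with AP-1.

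YAP1 itself was at 28.1, 26.2 and 22.9 FPKM in the Sh-NC libraries and at 3.35, 2.67 and 2.58 FPKM in the Sh-YAP1 libraries. The knockdown amounted to -2.79 on the log2 scale (standard error, SE, of 0.12), with adjusted p = 0.0018 by limma with the adjustment of Benjamini-Hochberg, written BH from here on. FPKM summed to between 467493 and 475116 per library, and depth is unknown because the values come without counts. The estrogen and progesterone receptor genes ESR1 and PGR did not exceed 0.07 FPKM, ERBB2 lay between 14.3 and 18.1 FPKM, and VIM, a marker of mesenchymal-like lines, lay between 1645 and 2303 FPKM. Of 9 leukocyte markers, CD3E, ITGAM and MPO were listed at 0 in all libraries, and CD68, which many cell lines express, was the most abundant at 56.2 to 80.2 FPKM.

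The 10 genes were expressed at very different levels, in nearly the same order in both groups. S100A6 (calcyclin) was by far the highest, with means of 3334 ± 79.2 FPKM (Sh-NC) and 3579.6 ± 258.8 FPKM (Sh-YAP1; SD, n = 3 each), and ranked between 10 and 14 among all genes of a library. It held 58.6% to 64.9% of the summed FPKM of the 10 genes. S100A10 and S100A11 came next, followed by S100A4, S100A16, S100A2, S100A13 and S100A3. S100P was near 2 FPKM and S100A14 stayed under 0.5 FPKM.

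**Figure D1:**
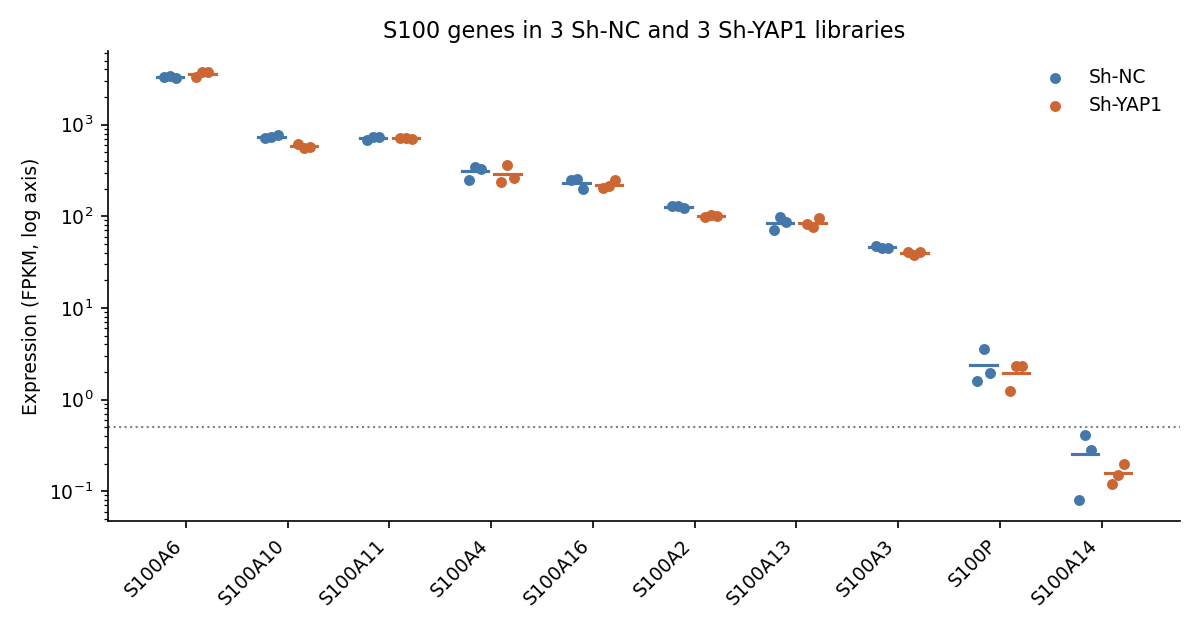
Expression of the 10 S100 genes in each library (FPKM, log axis), ordered by mean level, with Sh-NC in blue and Sh-YAP1 in orange. Points are libraries, horizontal bars are group means and the dotted line marks the 0.5 FPKM filter. S100A6 lies highest, near its means of 3334 and 3579.6 FPKM, and only S100A14 lies under the line.

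Neighbours in this order did not always separate. In Sh-NC the libraries of S100A10 and S100A11 overlapped, at 715.8 to 776.9 FPKM and 684.3 to 739.4 FPKM. In Sh-YAP1 they did not, and S100A11 took the second place with 703.5 to 710.2 FPKM against 556.8 to 613.7 FPKM for S100A10. S100A4 and S100A16 overlapped in both groups, and all other neighbours were separated by the libraries of each group. The ratio of S100A10 to S100A11 was 1.05, 1.0 and 1.05 in the Sh-NC libraries and 0.864, 0.788 and 0.808 in the Sh-YAP1 libraries.

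The summed expression of the 10 genes overlapped between the conditions. It was 5497, 5735 and 5544 FPKM in the Sh-NC libraries and 5267, 5777 and 5763 FPKM in the Sh-YAP1 libraries, which is 1.11% to 1.23% of the FPKM of a library. The means were 5592 ± 126.1 and 5602 ± 291.0 FPKM (SD, n = 3 each). S100A6 makes up most of this sum, so differences of the less abundant members weigh little in it. As these are bulk libraries, a gene expressed in fewer cells and a gene with less RNA per cell cannot be told apart.

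Of the 10 genes, 9 averaged 0.5 FPKM or more over the libraries and were tested among 14770 genes with limma on log2(FPKM + 1), a scale that understates the change of genes near 1 FPKM. S100A2 was the only member with an adjusted p under 0.05 (BH over all genes tested), and it was lower in Sh-YAP1. Over all genes tested 3.38% passed this threshold, 1.62% with lower and 1.75% with higher expression in Sh-YAP1. The libraries of the groups did not overlap for 3 of the 9 members (S100A2, S100A3 and S100A10), all lower in Sh-YAP1, against 29.4% of all genes in either direction, 14.7% in the lower and 14.6% in the higher direction. An unadjusted p under 0.05 was reached by the same 3 members, against 21.9% of all genes.

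Most fitted differences of the members were small. The log2 fold change was negative for 7 members and positive for 2, with a median of -0.113. The median over all genes tested was -0.001. Over the 624 genes that averaged 100 FPKM or more, a level that 6 of the members reached, it was -0.102, 433 had a negative value, and 4.49% passed an adjusted p of 0.05 (limma, BH). With a median length of 1000 nt or less over the annotated transcripts of a gene as a further condition, 470 genes were left. Their median log2 fold change was -0.106, and 3.62% passed. The median of the members thus lay close to that of other abundant genes.

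**Figure D2:**
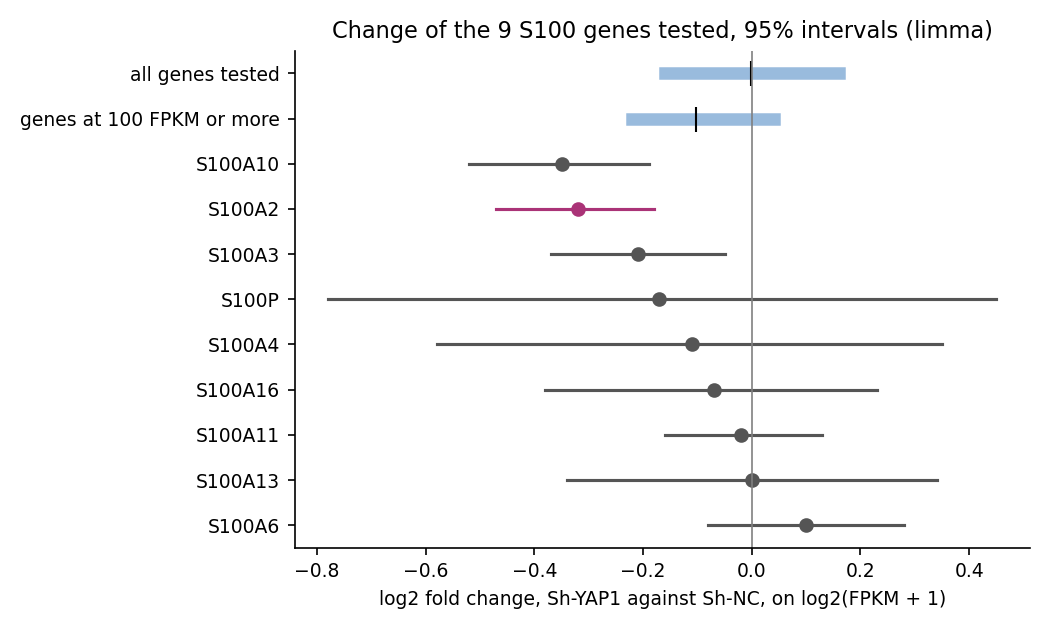
Log2 fold change of Sh-YAP1 against Sh-NC for the 9 S100 genes tested, on the log2(FPKM + 1) scale, with 95% intervals from limma as lines and S100A2, the only gene with an adjusted p under 0.05, in magenta. Blue bands span the quartiles and black ticks the median of all genes tested and of genes at 100 FPKM or more. S100A10, S100A2 and S100A3 have intervals below 0, and the other 6 intervals include 0.

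S100A2 is a nuclear S100 protein that binds p53 and was first described as a gene with lower expression in breast tumor cells. It was at 128.7, 128.7 and 122.4 FPKM in the Sh-NC libraries and at 98.2, 103.5 and 101.1 FPKM in the Sh-YAP1 libraries. Each Sh-YAP1 library was below each Sh-NC library, and the spread within both groups was small next to the gap. The mean fell by 20.3%, from 126.6 ± 3.62 to 100.9 ± 2.64 FPKM (SD, n = 3 each). On the log2 scale this was -0.32 (SE 0.06, 95% interval -0.47 to -0.18, adjusted p = 0.0427, limma, BH). The call rested on every library, since leaving out any of the 6 in turn gave an adjusted p (limma, BH) between 0.08 and 0.145, with a log2 fold change between -0.35 and -0.3. The call was also lost without a filter on low values, with quantile normalization and without the mean-variance trend, at an adjusted p (limma, BH) of 0.0687, 0.0533 and 0.0782, and with the highest transcript in place of the sum, at 0.206. Permuting the 6 values exactly (two-sided) gave p = 0.1 for S100A2, S100A3 and S100A10 alike, which is the limit of a design with 3 libraries a group.

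S100A10 (p11) is the light chain of the annexin A2 complex at the cell surface, where it takes part in plasminogen activation, and it has lost the ability to bind calcium. Its expression was 715.8, 725.9 and 776.9 FPKM in the Sh-NC libraries and 613.7, 556.8 and 568.6 FPKM in the Sh-YAP1 libraries. All Sh-YAP1 libraries were below all Sh-NC libraries, and the difference in means of -21.6% was the largest among the 9 members tested. The means were 739.6 ± 32.8 and 579.7 ± 30 FPKM (SD, n = 3 each). The log2 fold change was -0.35 (SE 0.07, 95% interval -0.52 to -0.19), and the adjusted p of 0.0507 (limma, BH) missed the threshold. It passed under 5 of 17 alternative settings, with an adjusted p (limma, BH) between 0.0448 and 0.0491 in those 5.

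S100A3 is a cysteine-rich, zinc-binding member best known from the hair cuticle. It was at 47.8, 45.6 and 45.5 FPKM in the Sh-NC libraries and at 41.1, 38.0 and 40.7 FPKM in the Sh-YAP1 libraries. The groups did not overlap, but the gap was narrower than for S100A2 and S100A10. This gave a log2 fold change of -0.21 (SE 0.07, 95% interval -0.37 to -0.05, adjusted p = 0.138, limma, BH).

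An AP-1 motif was found in 1 of 2 promoter windows of S100A2 and in the window of S100A3. A TEAD motif was found in 1 of 2 windows of S100A16. The windows of the other members, S100A10 among them, held neither motif. The window was the 250 bases before each start site listed in RefSeq (GRCh38.p14), where all 10 members were found with 14 start sites in all. Both strands were searched for GGAATG, a TEAD core motif, and for TGANTCA, an AP-1 motif. GGAATG was present in 1 of the 14 windows and in 11.9% of all 35116 promoters, and TGANTCA in 2 of the 14 windows and in 6.57% of all promoters. A match in a window is a description and does not show binding, and a window without a match does not show that binding is absent. Whether the motifs bear on expression was not tested. The stretches below are shown because they hold these matches, 5′ to 3′ on the strand of the gene, limited to bases outside annotated exons, with the motif in capitals. S100A2 lies at chr1:153565866-153566094, S100A3 at chr1:153549373-153549508 and S100A16 at chr1:153613146-153613387, all on the minus strand.
S100A2: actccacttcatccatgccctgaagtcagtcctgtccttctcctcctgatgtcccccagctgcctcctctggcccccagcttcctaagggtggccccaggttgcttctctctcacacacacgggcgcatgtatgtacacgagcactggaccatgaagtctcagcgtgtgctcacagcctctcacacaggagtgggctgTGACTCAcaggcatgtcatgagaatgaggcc
S100A3: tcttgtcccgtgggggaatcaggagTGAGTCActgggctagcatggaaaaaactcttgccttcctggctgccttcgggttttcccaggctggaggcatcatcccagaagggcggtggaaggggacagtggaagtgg
S100A16: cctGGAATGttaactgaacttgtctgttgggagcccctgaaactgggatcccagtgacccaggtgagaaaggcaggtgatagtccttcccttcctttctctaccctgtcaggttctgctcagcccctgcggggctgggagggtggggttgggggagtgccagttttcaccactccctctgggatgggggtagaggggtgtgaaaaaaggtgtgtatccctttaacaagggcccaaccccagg
The first base of the AP-1 motif lay at position -52 from the start site of its window in S100A2 and at -225 in S100A3, and that of the TEAD motif at -247 in S100A16. S100A16 did not pass the test of expression, as its values further on show.

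S100A4 (metastasin) binds the heavy chain of non-muscle myosin IIA and is the family member most closely tied to metastasis in mouse mammary tumors. It was at 250.2, 347.5 and 328.1 FPKM in the Sh-NC libraries and at 234.2, 364.9 and 263.4 FPKM in the Sh-YAP1 libraries. The lowest and the highest value both belonged to Sh-YAP1, so the Sh-NC libraries lay within the range of Sh-YAP1. The coefficient of variation was 16.7% in Sh-NC and 23.8% in Sh-YAP1. A log2 fold change of -0.11 was fitted, with a 95% interval from -0.58 to 0.35 (adjusted p = 0.778, limma, BH), which is wide enough to include both 0 and the value of S100A10.

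S100A6 binds CACYBP, a component of a ubiquitin ligase complex, and several annexins. It was at 3350.3, 3403 and 3248 FPKM in the Sh-NC libraries and at 3281, 3716 and 3742 FPKM in the Sh-YAP1 libraries. Sh-YAP1 replicate 1 lay among the Sh-NC libraries and the other two above them. On the log2 scale the difference was 0.10 (SE 0.08, 95% interval -0.08 to 0.28, adjusted p = 0.486, limma, BH).

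S100A11 (calgizzarin) binds annexin A1 and takes part in the repair of the plasma membrane. Its expression was 684.3, 724.3 and 739.4 FPKM in the Sh-NC libraries and 710.2, 707.0 and 703.5 FPKM in the Sh-YAP1 libraries. The Sh-YAP1 libraries lay within the range of Sh-NC with a coefficient of variation of 0.473%. The fitted log2 fold change was -0.02 with a 95% interval from -0.16 to 0.13 (adjusted p = 0.895, limma, BH), the narrowest interval among the members that did not pass.

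S100A16, a widely expressed member, was at 247.3, 256.8 and 196.3 FPKM in the Sh-NC libraries and at 203.7, 212.3 and 246.7 FPKM in the Sh-YAP1 libraries. S100A13, which takes part in the release of FGF1 and interleukin 1 alpha from cells without a signal peptide, was at 70.4, 98.9 and 86.2 FPKM in Sh-NC and at 82.9, 76.4 and 95.1 FPKM in Sh-YAP1. The groups overlapped for both genes. Fitted log2 fold changes were -0.07 (95% interval -0.38 to 0.23) for S100A16 and 0.00 (95% interval -0.34 to 0.34) for S100A13, with adjusted p = 0.775 and 0.997 (limma, BH).

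S100P binds ezrin and IQGAP1 and signals through AGER when secreted. It was at 1.59, 3.58 and 1.93 FPKM in the Sh-NC libraries and at 1.25, 2.31 and 2.30 FPKM in the Sh-YAP1 libraries, with overlapping groups. Its fitted log2 fold change was -0.17 (95% interval -0.78 to 0.45, adjusted p = 0.751, limma, BH), the widest interval of the members. S100A14, an epithelial member, was listed at 0.08, 0.41 and 0.28 FPKM in the Sh-NC libraries and at 0.12, 0.15 and 0.20 FPKM in the Sh-YAP1 libraries, and was not tested.

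The files list 44 transcripts of the 10 genes without transcript names, so they are lettered here by their mean level within a gene. The number of transcripts of each gene equals the number in GENCODE 29. Of the 44, 33 had a mean of at least 0.1 FPKM and were tested, and 5 were listed at 0 in all libraries. None had an adjusted p under 0.05, the lowest being 0.377 (limma, BH over 77655 transcripts), where 0.0515% of all transcripts tested did. An unadjusted p under 0.05 was reached by 6 of the 33, against 6.12% of all transcripts. These were S100A2 a, b and e, S100A3 b, and S100A16 a and c, so several belong to the same gene. The share over all transcripts covers every level from a mean of 0.1 FPKM, and no share matched for level was computed.

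The transcripts of S100A2 differed unevenly between the groups. Transcript a, which held 65.4% of the gene, was at 86.8, 87.1 and 76.2 FPKM in Sh-NC and at 58.4, 68.8 and 69.4 FPKM in Sh-YAP1, without overlap. Transcript e, a minor form, was at 3.51, 4.0 and 4.35 FPKM in Sh-NC and at 1.42, 0.82 and 1.63 FPKM in Sh-YAP1, a log2 difference of -1.13 (SE 0.21) and the transcript with the lowest adjusted p. Transcripts b, c and d overlapped between the groups and had log2 differences of -0.51, 0.07 and 0.04.

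Within S100A10 the share of the leading transcripts differed between libraries of the same group. Transcript a was at 714.8, 724.6 and 513.3 FPKM in Sh-NC and at 612.6, 400.5 and 410.2 FPKM in Sh-YAP1. Transcript b was at 0.03, 0.02 and 262.6 FPKM in Sh-NC and at 0.02, 155.5 and 157.1 FPKM in Sh-YAP1. Transcript b was therefore near 0 in Sh-NC replicates 1 and 2 and in Sh-YAP1 replicate 1 and held 27.6% to 33.8% of the gene in the other libraries. The sum of both was 714.8, 724.6 and 775.9 FPKM in Sh-NC and 612.6, 556.0 and 567.3 FPKM in Sh-YAP1, so the groups overlapped for transcript a alone and not for the sum.

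**Figure D3:**
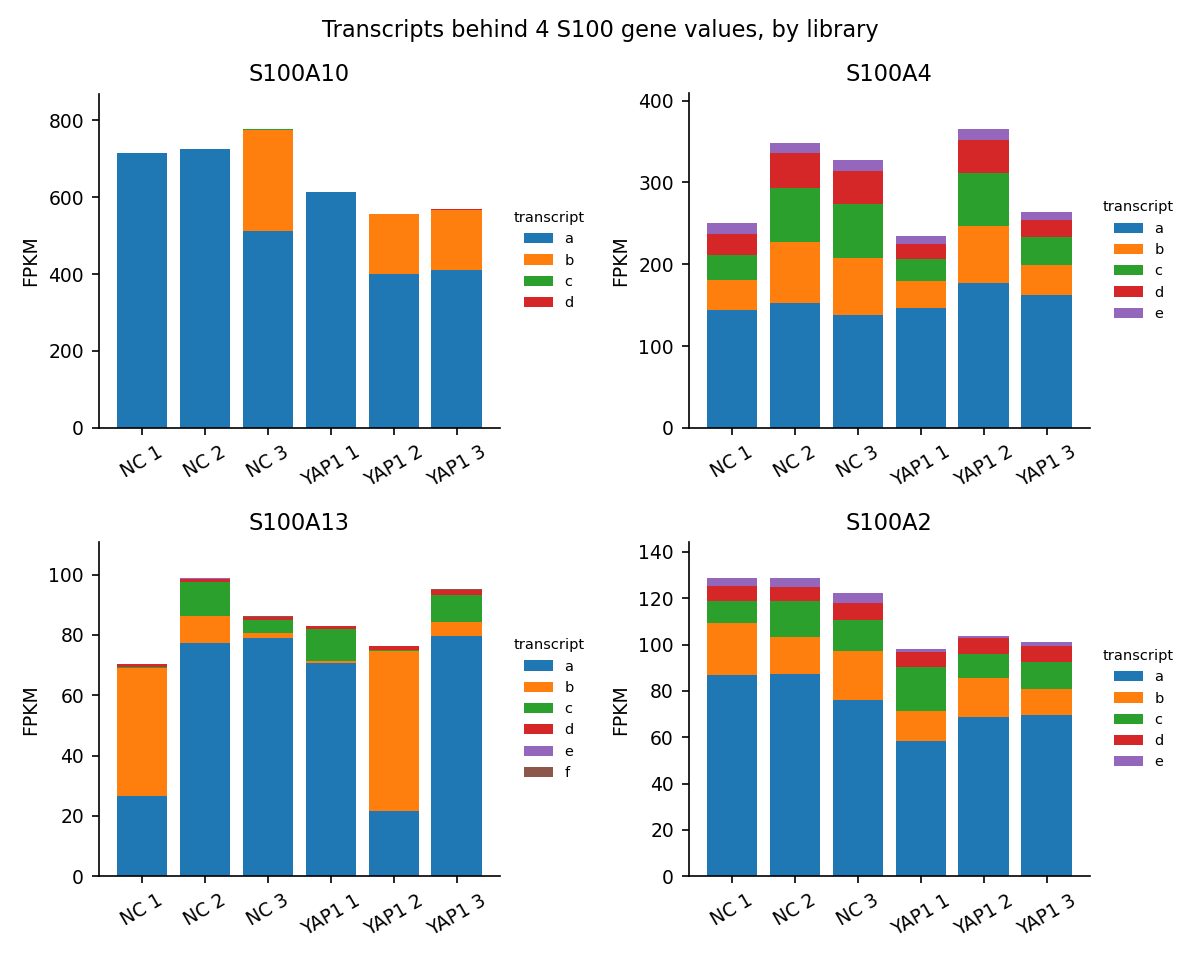
FPKM of the transcripts of S100A10, S100A4, S100A13 and S100A2, stacked for each library (NC, Sh-NC; YAP1, Sh-YAP1), with transcripts lettered by their mean level within the gene. S100A10 and S100A13 divide between transcripts a and b differently in libraries of the same group, while the bar heights, the gene values, vary less.

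S100A13 divided in a similar way. Transcript a was at 26.6, 77.3 and 78.9 FPKM in Sh-NC and at 70.6, 21.6 and 79.7 FPKM in Sh-YAP1, and transcript b at 42.4, 9.02 and 1.89 FPKM in Sh-NC and at 0.62, 53.0 and 4.53 FPKM in Sh-YAP1. AL162258.1, a transcribed locus on the same strand that shares 24.188% of the exon bases of S100A13, was at 21.7, 7.68 and 11.8 FPKM in Sh-NC and at 12.2, 26.1 and 10.6 FPKM in Sh-YAP1. It was highest in Sh-NC replicate 1 and Sh-YAP1 replicate 2, the libraries in which transcript b was highest and transcript a lowest. Of the 50-base stretches of S100A13 transcripts, 18.843% also occur in AL162258.1, so the value of S100A13 is uncertain by the fragments that the counting could have assigned to either.

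For S100A4 the spread between libraries lay in some of its transcripts. Transcripts b, c and d together were at 93.1, 182.6 and 176.1 FPKM in Sh-NC and at 78.4, 174.7 and 91.5 FPKM in Sh-YAP1. Transcript a varied less, at 143.7, 152.9 and 137.4 FPKM in Sh-NC and at 146.7, 177.6 and 162.4 FPKM in Sh-YAP1. S100A16 held transcripts that differed in opposite directions, with transcript a at 92.1, 103.9 and 82.2 FPKM in Sh-NC and 63.2, 78.2 and 75 FPKM in Sh-YAP1, and transcript c at 53.9, 59.4 and 54.6 FPKM in Sh-NC and 65.4, 80.5 and 67.4 FPKM in Sh-YAP1. Neither transcript passed, with an adjusted p (limma, BH) of 0.769 and 0.748. S100A11 and S100P each consisted of a single transcript above 0.1 FPKM.

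The members share a genomic neighbourhood. In GENCODE 29 (GRCh38), 9 of the 10 lie on the minus strand of chromosome 1, and S100P lies on the plus strand of chromosome 4 at chr4:6693069-6697170. S100A6, S100A4, S100A3, S100A2, S100A16, S100A14 and S100A13 lie within 96.8 kb (chr1:153534599-153631360). S100A10 (chr1:151982915-151994390) and S100A11 (chr1:152032506-152047907) lie apart from these, with 1486.7 kb between the end of S100A11 and the start of S100A6. Their transcripts are short, with median lengths of 521.0 to 1041.5 nt per gene, against 1139 nt as the median over 19951 protein-coding genes. S100A3 lies inside the span of S100A4, with no shared exon bases. S100A6 shares 23 exon bases with the antisense locus BX470102.1 and S100A13 shares 235 with S100A1 on the opposite strand, and strand is not known to have been used in counting.

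Of 18 other genes of 1q21 that were tested, RAB13 was higher, MRPL9 was lower and 16 did not pass, where 3.38% of all genes tested passed. The groups did not overlap for 5 of the 18 and an unadjusted p under 0.05 was reached by 3, against 29.4% and 21.9% of all genes, and the median log2 fold change was -0.083. RAB13, a small GTPase of membrane traffic 350.3 kb from the nearest member, was at 52.8, 56.9 and 55.4 FPKM in Sh-NC and at 74.0, 75.5 and 80.8 FPKM in Sh-YAP1 (log2 fold change 0.47, SE 0.07, adjusted p = 0.0239, limma, BH). MRPL9, a mitochondrial ribosomal protein 219.4 kb from the nearest member, was at 34.6, 56.2 and 50.2 FPKM in Sh-NC and at 22.7, 23.1 and 22.6 FPKM in Sh-YAP1 (log2 fold change -0.98, SE 0.17, adjusted p = 0.0364, limma, BH). Of the tested genes listed between them along the chromosome, S100A2 was the only one that passed.

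**Figure D4:**
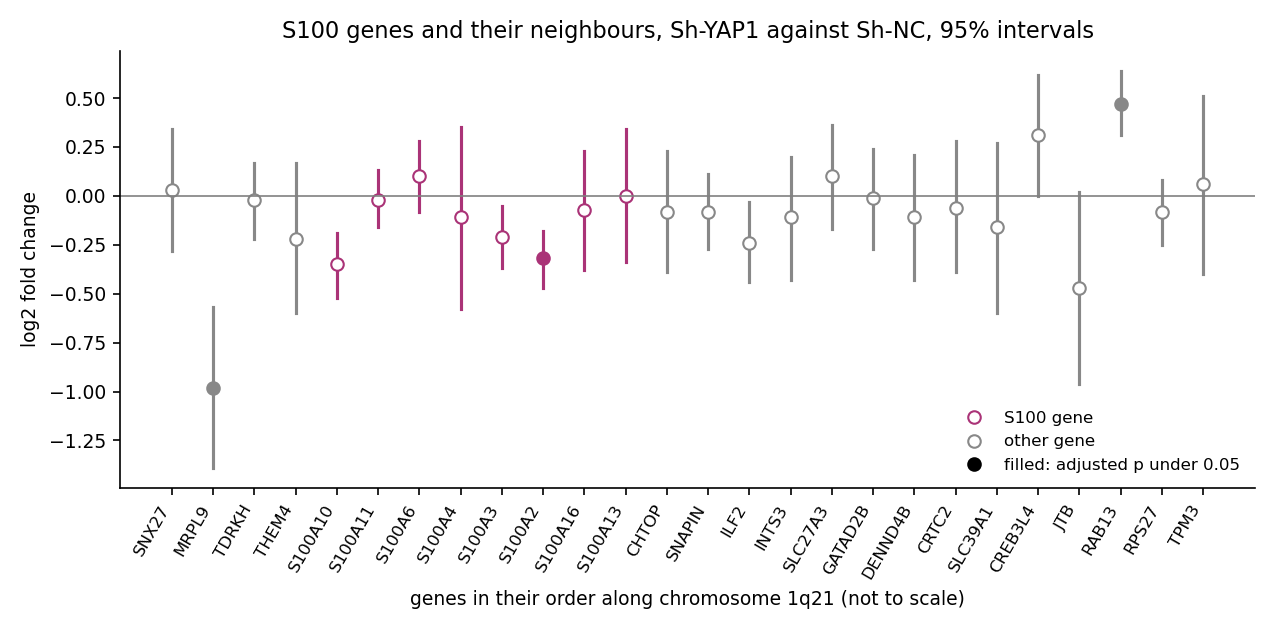
Log2 fold change of Sh-YAP1 against Sh-NC, with 95% intervals from limma, for the 8 tested S100 members on chromosome 1 (magenta) and 18 other genes of 1q21 (grey), in their order along the chromosome. Filled points have an adjusted p under 0.05, which are MRPL9 (-0.98), S100A2 (-0.32) and RAB13 (0.47).

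Of 11 further S100 genes, 7 were listed at 0 in all libraries, among them S100A7, S100A8, S100A12 and S100B, and S100A9 did not exceed 0.19 FPKM. These include the members typical of myeloid cells, psoriatic skin and nervous tissue. Only S100A5 and S100Z passed the filter. S100A5, which neighbours S100A6, was at 10.2, 6.24 and 8.12 FPKM in Sh-NC and at 10.5, 14.3 and 13.7 FPKM in Sh-YAP1. Its groups did not overlap and it was higher in Sh-YAP1, opposite to S100A2, with a log2 fold change of 0.60 (SE 0.19, 95% interval 0.16 to 1.05, adjusted p = 0.13, limma, BH). S100Z had a log2 fold change of 0.13 (adjusted p = 0.77, limma, BH). The 10 S100 pseudogenes in the data did not exceed 0.19 FPKM.

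Binding partners and receptors of S100 proteins were described from a list of 30 genes, 28 of which were tested. MYH9 was the only one to pass, and it was lower in Sh-YAP1, while 27 did not pass, where 3.38% of all genes tested passed. An unadjusted p under 0.05 was reached by 12 of the 28, against 21.9% of all genes, and 12 had groups that did not overlap, against 29.4% of all genes. The median log2 fold change of the list was -0.188, with 18 negative and 10 positive values. MYH9, the non-muscle myosin heavy chain bound by S100A4, was at 175.1, 176.2 and 164.0 FPKM in Sh-NC and at 129.9, 133.2 and 132.3 FPKM in Sh-YAP1. It fell by 0.38 on the log2 scale (SE 0.06, 95% interval -0.52 to -0.23, adjusted p = 0.0289, limma, BH), while S100A4 itself did not pass.

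ANXA2, the annexin that holds S100A10 at the membrane, was at 1639, 1617 and 1759.9 FPKM in Sh-NC and at 1406, 1516 and 1291 FPKM in Sh-YAP1. The groups did not overlap, as for S100A10, and the log2 fold change was -0.25 (95% interval -0.45 to -0.06, adjusted p = 0.141, limma, BH). The ratio of S100A10 to ANXA2 was 0.437, 0.449 and 0.441 in the Sh-NC libraries and 0.436, 0.367 and 0.44 in the Sh-YAP1 libraries. It was lower in Sh-YAP1 replicate 2 than in the other libraries. PLAT, the tissue plasminogen activator that this complex binds, was at 278.9, 235.4 and 178.1 FPKM in Sh-NC and at 103.8, 130.4 and 132.5 FPKM in Sh-YAP1, and was named after its values were seen because it had the largest fitted difference of the list. On the log2 scale the difference was -0.90 (SE 0.18, adjusted p = 0.0525, limma, BH).

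The named partners of S100A6, S100A11 and S100P did not pass. CACYBP, bound by S100A6, was at 67.0, 64.9 and 64.7 FPKM in Sh-NC and at 57.7, 47.7 and 45.7 FPKM in Sh-YAP1, without overlap (log2 fold change -0.38, adjusted p = 0.0915, limma, BH). For ANXA1, bound by S100A11, the log2 fold change was 0.10 with a 95% interval from -0.10 to 0.29. For the S100P partners EZR and IQGAP1 it was -0.39 and 0.30, with adjusted p = 0.135 and 0.219 (limma, BH). AGER was expressed at 1.36 to 2.64 FPKM, with a log2 fold change of 0.33 and a 95% interval from -0.11 to 0.77. S100PBP, which binds S100P in the nucleus, had a log2 fold change of -0.15 and a 95% interval from -0.58 to 0.28.

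**Figure D5:**
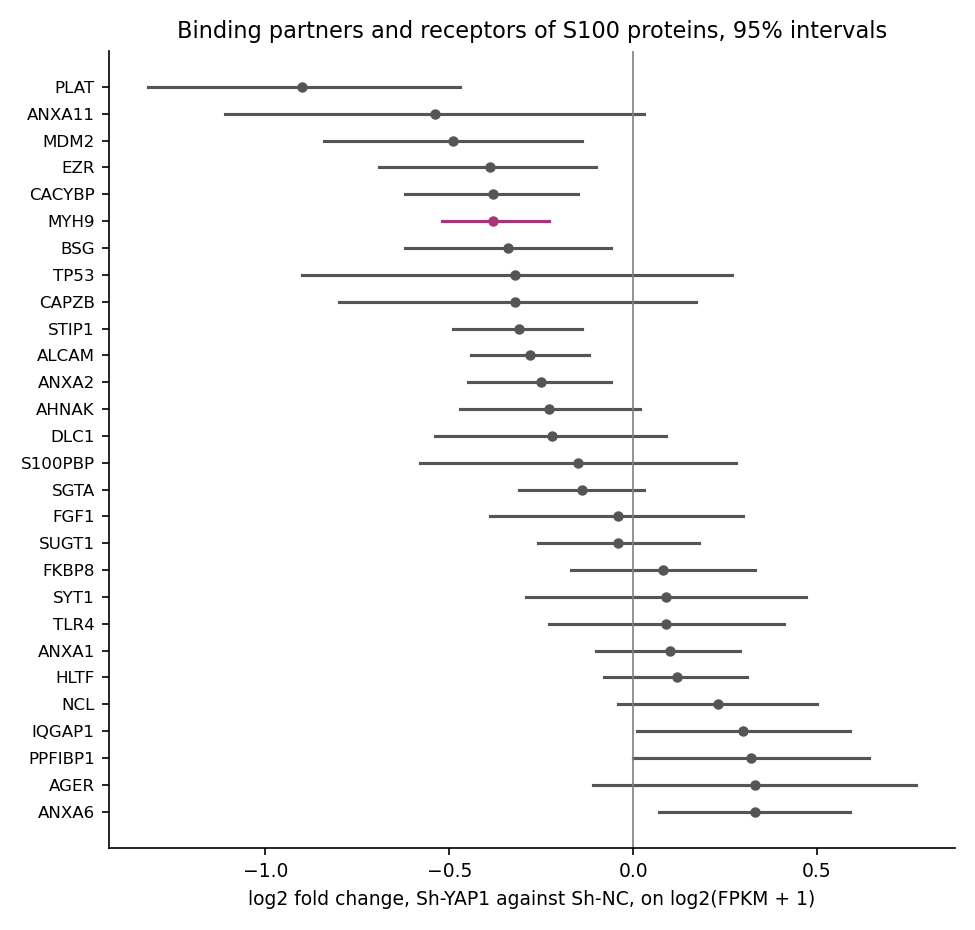
Log2 fold change of Sh-YAP1 against Sh-NC for 28 binding partners and receptors of S100 proteins, ordered by value, with 95% intervals from limma. MYH9, in magenta, is the only gene with an adjusted p under 0.05, and PLAT has the lowest value (-0.90).

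Other EF-hand proteins gave a background for calcium binders outside the S100 family. Of 30 listed, among them calmodulins, calpains, reticulocalbins and actinins, 28 were tested and none had an adjusted p under 0.05 (limma, BH), where 3.38% of all genes did. An unadjusted p under 0.05 was reached by 7, against 21.9% of all genes, and 7 had groups that did not overlap, against 29.4%. Their median log2 fold change was -0.127, near the -0.113 of the S100 members.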

How the data were processed

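The authors sequenced RNA of MDA-MB-231 cells with a control hairpin (Sh-NC) or a YAP1 hairpin (Sh-YAP1), 3 libraries a group. The deposited values are FPKM, 1 value per transcript and library with a gene identifier, for 229420 transcripts of 60612 genes. The submitters' processing notes list HISAT2 2.0, Bowtie 0.12.2 and the genome build hg19; filters, strand use and the annotation are not given in the sources used here, and depth is unknown. The study's methods cite another series for RNA-sequencing, so samples were matched by their labels. FPKM divides by transcript length, so values of short transcripts are sensitive to the length model.

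Gene values were sums over transcripts. Symbols were found for 60588 identifiers and GENCODE 29 (GRCh38) entries for 58394, which gave positions and lengths. Values were analysed as log2(FPKM + 1), with a pseudocount of 1. Genes averaging 0.5 FPKM or more and transcripts averaging 0.1 FPKM or more entered limma 3.58.1 (lmFit, then eBayes with trend) in R 4.3.3. The model held the group alone, and p-values were adjusted by Benjamini-Hochberg (BH) over every feature that entered. The 6 values of a gene were also permuted exactly (two-sided, scipy 1.17.1). Promoter windows came from RefSeq (GRCh38.p14). Python 3.11.15 with pandas 2.3.3 and matplotlib 3.10.9 was used elsewhere.

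The code was tested on simulated data with 200 of 14770 genes changed. Of these, 0 were called at a log2 change of 0.5, 147 at 1 and 184 at 1.5, with 0, 8 and 17 false calls.

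The members and all gene lists were chosen with earlier results of these data known. Named were YAP1, all members, further S100 genes above the filter, called genes of the partner, EF-hand and 1q21 lists (at most 6 each), and ANXA2, ANXA1, MYH9, CACYBP, EZR, IQGAP1, AGER and S100PBP. Beside these lists, TNBC receptors, mesenchymal-like, luminal, leukocyte, fibroblast and keratinocyte genes were summed. Alternatives covered the pseudocount, filter, scaling, gene sums, trend, replicate block and leaving out each library.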

Additional observations from a re-analysis of the deposited data

How the results depend on the processing

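Of 14770 genes, 499 passed the adjusted threshold of 0.05 (limma, BH). Without a filter on low values this was 232, with the highest transcript of each gene in place of the sum 96, and with each library left out in turn between 78 and 171. The number of S100 members passing was 1. It was 2, S100A2 and S100A10, with a pseudocount of 0.1 or 0.01, a mean of at least 1 FPKM, centring on the median or an equal summed FPKM. It was 0 without a filter, with the highest transcript, quantile normalization or no trend, and with each library left out (0 to 0). The log2 fold change of S100A2 stayed between -0.35 and -0.27 and that of S100A10 between -0.47 and -0.27 over 17 alternatives, while the adjusted p (limma, BH) ran from 0.0371 to 0.206 and from 0.0448 to 0.4. Members that did not pass changed sign in places. With the highest transcript S100A4 was 0.16 and S100A13 -0.13, with quantile normalization S100A11 was 0.05 and S100A16 0.04, and with median centring S100A13 was -0.01. With libraries left out, S100A4 ranged from -0.30 to 0.02, S100A11 from -0.05 to 0.01, S100A13 from -0.13 to 0.12 and S100P from -0.33 to 0.08. The causes were not tested. No S100 transcript passed under any setting run.

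Libraries of the same number did not deviate together (correlations across genes of -0.0285, 0.0621 and 0.0042), and 2 of the 6 libraries correlated best with their own number, so the numbers were not taken as pairs. With the replicate block, 1 gene passed and 0 S100 members (S100A2 -0.32, adjusted p = 0.165, limma, BH), while 2779 genes had an unadjusted p under 0.05.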

Other observations

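Among the cell line markers summed beside the S100 genes, AXL, a receptor kinase typical of mesenchymal-like breast cancer lines, had a log2 fold change of -0.35 (adjusted p = 0.039, limma, BH), and KRT19, a keratin of luminal cells, of -0.50 (adjusted p = 0.0273, limma, BH). Both were named after their values were seen. The summed luminal markers lay between 217.7 and 249.2 FPKM in Sh-NC and between 170.5 and 183.3 FPKM in Sh-YAP1. KRT19 held this gap, at 166.0 to 193.4 FPKM in Sh-NC and 120.0 to 127 FPKM in Sh-YAP1. The sum of the other 8 luminal markers overlapped, at 46.9 to 55.8 FPKM and 43.5 to 57.8 FPKM. Among these 8 only FOXA1 was without overlap, at 0.75 to 1.03 FPKM in Sh-NC and 0.36 to 0.71 FPKM in Sh-YAP1 (log2 fold change -0.36, adjusted p = 0.187, limma, BH). The summed mesenchymal-like markers lay between 3799 and 4195 FPKM in Sh-NC and between 3281 and 3733 FPKM in Sh-YAP1. Of these 7 genes VIM, the most abundant, overlapped between the groups (log2 fold change -0.06), as did CD44 and FN1, while CAV1 (-0.57), LGALS1 (-0.41), AXL and MSN (-0.15) were lower in Sh-YAP1 without overlap, of which AXL alone had an adjusted p under 0.05 (limma, BH). The part of either in the fall of S100A2 was not tested. Leukocyte markers summed to 57.1 to 79.7 FPKM in Sh-NC and 66.2 to 81.9 FPKM in Sh-YAP1, and fibroblast markers to 9.16 to 12.4 FPKM in Sh-NC and 5.36 to 11.5 FPKM in Sh-YAP1. Of 18 keratinocyte genes in the data, 12 were listed at 0 in all libraries, and KRT10 was at 48.4 FPKM in Sh-NC replicate 3 against 12.4 to 14.9 FPKM in the other 5.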
